A study of Mus musculus with 12 samples.

Results

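The expression of 10 immediate early genes was followed across 2 kinds of cultured muscle cell and 2 mouse muscles: Fos, Fosb, Jun, Junb, Jund, Egr1, Egr2, Atf3, Ier2 and Socs3. They were taken by name, as every array probe that was no control and whose gene name was one of these symbols. The rule uses no measured value, although the genes were picked with earlier results of these data known. The 10 genes had 12 probes among the 41174 on the array, 8 of them with 1 probe each and Junb and Ier2 with 2 each. Jund stood on the array under its older name, Jund1, and was matched through its RefSeq accession, so the name alone found 9 of the 10. All 12 probes were well above background on all 12 arrays, so every member passed the filter on dim probes that left 28607 probes of 18861 genes.

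The study measured RNA on one-colour Agilent mouse arrays, which carry short synthetic probes, in 4 groups of 3 samples, and its title places it in work on genes that set the mitochondrial dNTP pool of muscle cells. Myoblasts were dividing C2C12 cells, an established line of mouse muscle precursors, collected at about 50% confluence in medium with 10% fetal bovine serum. Myotubes were C2C12 cells taken to 90% confluence, switched to 2% horse serum for 96 h, loosened with dilute trypsin and put back into growth medium for 30 min, after which the cells still afloat were collected. EDL (extensor digitorum longus, a fast muscle of the lower leg) and soleus (a slow muscle of the calf) were dissected from male CD1 mice aged 3 months. One mouse gave each muscle sample, from both hind limbs. The labels name no genetic change or drug in any group. Both cultures come from 1 cell line, and each whole muscle also holds vessels, nerve and connective tissue. The labels do not say that the cultures were grown separately. Every p-value below that involves a culture therefore speaks only of these particular samples, set against the spread among them. In soleus against EDL each sample came from 1 mouse, but the test pools the spread of all 4 groups, cultures included.

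Immediate early genes are switched on within minutes of a signal such as serum, stretch, stress or a cytokine, by factors already present in the cell, and their RNAs decay fast. Fos and Jun proteins pair as the transcription factor AP-1, the zinc finger factors EGR1 and EGR2 bind GC-rich sites, and ATF3 is a stress-induced member of the same bZIP superfamily as AP-1. Serum response factor, which binds the CArG box, and CREB family factors, which bind sites with the core TGACG, are textbook activators of several of them, while Socs3, which is no transcription factor but an inhibitor of JAK and STAT signalling, is a target of STAT3 and is grouped here for its early response. In muscle and muscle cell cultures these genes are known to respond to contraction, injury and cell dissociation.

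Promoter sequence of 4 members is shown because these genes separated the groups in different ways: Socs3 and Fos between the cultures, Atf3 between the muscles, and Egr2 between the cultures and both muscles. The sequences are RefSeq's for build GRCm38.p6, read 5′ to 3′ on the strand of the gene. Capitals mark matches to TGACG, to TTCNNNGAA, the pattern of STAT sites, to GCGNGGGCG, the pattern of EGR sites, and to the CArG box, all searched on both strands, so that a TGACG on the other strand reads CGTCA. For Fos, Socs3 and Atf3 they are the 200 bases before the listed start (chr12:85473690-85473889, plus strand; chr11:117969367-117969566, minus strand; chr1:191183334-191183533, minus strand). For Egr2 they are 30 bases from -75 to -46 before 1 of its 5 listed starts (chr10:67537794-67537823, plus strand), chosen because this stretch holds a CArG box beside a TGACG core. Matches to the CArG box stood in 4 of the 5 Egr2 windows, 3 of which overlap and share 1 match.
Fos: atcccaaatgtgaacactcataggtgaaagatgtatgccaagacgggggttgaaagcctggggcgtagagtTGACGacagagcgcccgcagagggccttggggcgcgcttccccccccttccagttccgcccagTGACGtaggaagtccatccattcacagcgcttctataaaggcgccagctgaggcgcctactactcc
Egr2: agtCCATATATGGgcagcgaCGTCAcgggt
Socs3: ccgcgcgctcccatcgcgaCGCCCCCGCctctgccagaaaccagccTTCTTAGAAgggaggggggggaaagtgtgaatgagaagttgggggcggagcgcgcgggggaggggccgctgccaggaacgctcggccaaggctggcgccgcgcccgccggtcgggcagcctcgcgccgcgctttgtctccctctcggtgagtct
Atf3: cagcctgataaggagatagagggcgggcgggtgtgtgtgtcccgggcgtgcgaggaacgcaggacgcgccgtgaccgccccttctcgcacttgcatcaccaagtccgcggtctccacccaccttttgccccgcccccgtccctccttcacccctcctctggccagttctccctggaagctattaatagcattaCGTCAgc
The search ran on windows of 300 bases, 250 before and 50 after each start. Egr1 and Ier2 had no listed promoter and were not searched, and sites outside the windows were not looked for. A TGACG core stood in the windows of 5 of the 8 listed members (Fos, Fosb, Junb, Egr2 and Atf3), against 20.8% of 32851 windows of all genes. A member counts here when any of its windows held a match, and Egr2 had 5 windows. The percentages are shares of single windows, so counts and percentages are unlike measures. Among the 8 searched, the CArG box stood in windows of Egr2 only, against 1.63% of all windows. TTCNNNGAA stood in that of Socs3 only, against 8.3%, and GCGNGGGCG in those of Fosb and Socs3, against 5.55%. TGANTCA, the core of AP-1 sites, stood in none of the 8, against 7.81%. These matches are a description of letters in a window.

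Levels are given as log2 of the scanner's processed signal after the 75th percentile of each array was set to 9.65, and a difference of 1 is 2-fold. Before scaling, that percentile lay between 1018 and 1556 on the culture arrays and between 457 and 614 on the muscle arrays, and between 57.4% and 72.8% of probes were well above background. Each slide held 1 array of each group in the same order, so slide equals replicate number, and array position and group cannot be told apart. Slide 1 was scanned on another day than slides 2 and 3. A difference was called, and the words rose and fell are kept for it, at an adjusted p under 0.05 in limma's moderated test (Benjamini-Hochberg over all 28607 probes) together with a log2 difference of at least 1. The array probes are placed on mouse build mm8 by the files. Scaling by the spike-in control RNA, in place of the 75th percentile, moved the median of all probes by -0.33 in myotubes against myoblasts, by -0.95 and -1.23 in EDL and soleus against myotubes, and by -0.27 in soleus against EDL. It moved the median by -1.28 and -1.55 in EDL and soleus against myoblasts. Calls of the probe that stands for a gene, where they turn on this choice, are given with the gene.

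Fos, an inducible partner in AP-1, was highest in myotubes, next in soleus, and lowest in myoblasts and EDL. Its probe (A_52_P262219, chr12:86366053-86366112) was printed 10 times on each array, with an SD among spots of at most 0.071. In samples 1, 2 and 3 the level was 8.72, 8.99 and 9.37 in myoblasts and 11.46, 11.73 and 11.77 in myotubes. In the muscles it was 8.71, 8.99 and 8.65 in EDL and 10.16, 10.24 and 10.38 in soleus. The myotube samples stood above all 9 others, the soleus samples stood apart in the middle, and myoblast and EDL samples overlapped. Fos rose by 2.62 (SE 0.17, 6.16-fold, adjusted p = 3.0e-07) from myoblasts to myotubes. It was 2.87 lower in EDL (adjusted p = 9.6e-08) and 1.39 lower in soleus (adjusted p = 3.0e-05) than in myotubes. Soleus exceeded EDL by 1.48 (SE 0.17, 95% interval 1.10 to 1.85, adjusted p = 1.1e-04), with 1.45, 1.25 and 1.73 within the 3 slides, but with spike-in scaling the same gap was 1.20 with adjusted p = 0.198. Soleus exceeded myoblasts by 1.23 (adjusted p = 6.2e-05), a gap that was 0.80 and not called after normexp background correction and -0.32 with spike-in scaling. EDL and myoblasts differed by -0.24 (interval -0.62 to 0.13), which spike-in scaling made a call of -1.52.

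Fosb, a close relative of Fos, was the least reproducible of the 10. Its levels (A_51_P138378, chr7:18461650-18461709) were 7.17, 7.22 and 7.65 in myoblasts and 6.96, 6.96 and 7.21 in myotubes. They were 5.54, 7.40 and 5.92 in EDL and 5.42, 6.39 and 6.26 in soleus. EDL sample 2 stood among the cultures while the other two EDL samples stood with soleus, and the SD within EDL was 0.98, against at most 0.33 in any group for the other genes. Between myoblasts and myotubes Fosb differed by -0.30 (SE 0.43, interval -1.26 to 0.65). This SE pools the spread of all 4 groups, EDL among them, while the SD was 0.27 within myoblasts and 0.15 within myotubes. EDL was 0.76 below myotubes (adjusted p = 0.137), and without EDL sample 2 the difference was -1.31 and called (adjusted p = 0.00264), as it was with spike-in scaling (-1.71). Soleus was 1.02 below myotubes with all samples apart but adjusted p = 0.0544, which became 0.0343 with slide as a block, the pairing of the samples, and -1.42 with adjusted p = 0.00852 after quantile normalization. With spike-in scaling it was -2.25 and called (adjusted p = 0.00616), and after normexp it was 0.45 and not called. Against myoblasts Fosb fell by 1.06 in EDL (adjusted p = 0.0431), with overlap and with opposite signs within the slides (-1.63, 0.18 and -1.73). It fell by 1.33 in soleus (adjusted p = 0.0162). The EDL call was lost without EDL sample 1 or 3 (-0.69 and -0.88) or any 1 myoblast sample (-0.91 to -1.15), and the soleus call without soleus sample 1 (-1.03) or myoblast sample 3 (-1.17). After normexp they were -1.03 and -0.41, neither called.

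The 3 Jun genes, which can pair among themselves or with Fos proteins, each had their own order. Jun (A_51_P325914, chr4:94541191-94541250, also printed 10 times) was 11.30, 11.26 and 11.11 in myoblasts and 11.40, 11.44 and 11.26 in myotubes. It was 11.29, 11.25 and 11.16 in EDL and 11.95, 11.89 and 11.96 in soleus. The 3 soleus samples stood above the other 9, which overlapped one another. Soleus was 0.70 above EDL (SE 0.08, adjusted p = 1.5e-04) and 0.71 above myoblasts (adjusted p = 1.9e-05), too little for a call. It was 0.57 above myotubes (adjusted p = 1.4e-04), but with spike-in scaling these became 0.43, -0.84 and -0.66. EDL and myotubes differed by -0.13 (interval -0.32 to 0.05), and EDL and myoblasts by 0.01 (-0.18 to 0.20), which spike-in scaling made calls of -1.09 and -1.27.

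Junb, often an antagonist of Jun in AP-1, fell in both muscles. At its probe of higher mean signal (A_51_P159201, chr8:87867087-87867146) it was 15.33, 15.56 and 15.70 in myoblasts and 16.42, 16.66 and 16.82 in myotubes. It was 13.05, 13.30 and 13.37 in EDL and 13.00, 13.16 and 13.27 in soleus. Every culture sample stood above every muscle sample, and the 2 muscles overlapped. Junb rose by 1.10 (SE 0.14, adjusted p = 6.0e-05) from myoblasts to myotubes, a difference of 0.78 that was not called with spike-in scaling. Against myotubes it fell by 3.39 in EDL and by 3.49 in soleus, and against myoblasts by 2.29 and 2.39. The other probe (A_51_P159194, chr8:87867049-87867108), which shares 22 bases of position with the first, gave 1.10, -2.94 and -3.19 for the first 3 of these contrasts. Soleus and EDL differed by -0.10 (interval -0.42 to 0.22) at the first probe and -0.25 (-0.57 to 0.07) at the second.

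Jund, the Jun family member usually held at a steady level, was measured at A_51_P357744 (chr8:73629526-73629585). It was 14.86, 14.94 and 14.86 in myoblasts and 15.05, 15.12 and 15.15 in myotubes. It was 13.74, 13.68 and 13.62 in EDL and 14.50, 14.51 and 14.40 in soleus, so that no 2 groups overlapped. Jund fell by 1.43 in EDL against myotubes (adjusted p = 3.6e-08) and by 1.21 against myoblasts (adjusted p = 8.9e-08). Soleus was 0.64 below myotubes (adjusted p = 2.1e-05) and 0.79 above EDL (SE 0.07, adjusted p = 2.7e-05), both short of a call, although the first was called with spike-in scaling (-1.87) and normexp (-1.09). Soleus was 0.42 below myoblasts (adjusted p = 4.3e-04), and -1.97 and called with spike-in scaling. The step from myoblasts to myotubes was 0.22 (adjusted p = 0.0234), and -0.10 with spike-in scaling.

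**Figure D1:**
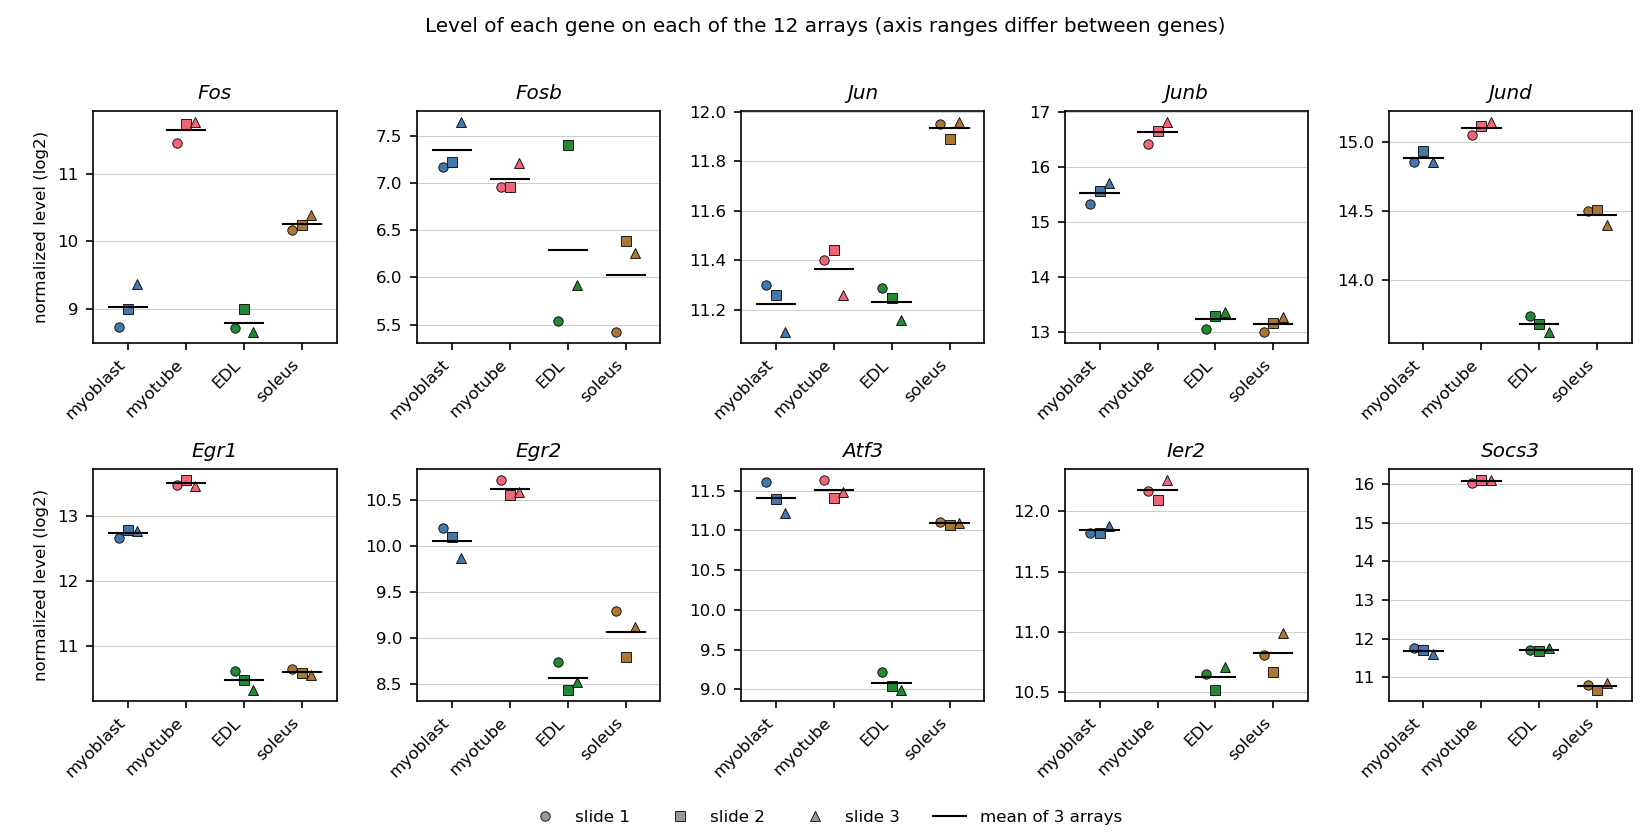
Normalized log2 level (vertical axis, its range differing from panel to panel) of each of the 10 genes on the 12 arrays, by group. Circles, squares and triangles are slides 1, 2 and 3, and the black line is the mean of 3 arrays. Socs3, Fos and Junb stand highest in myotubes, Atf3 and Fos are higher in soleus than in EDL, Jun is highest in soleus under this scaling though not with the spike-in one, and the square of Fosb in EDL (7.40) stands apart from the other 2 EDL samples.

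The EGR factors separated cultures from muscle. Egr1 (A_51_P367866, chr18:34990715-34990774), the archetype of the serum-induced zinc finger factors, was 12.66, 12.79 and 12.77 in myoblasts and 13.49, 13.57 and 13.47 in myotubes. It was 10.60, 10.47 and 10.31 in EDL and 10.63, 10.58 and 10.55 in soleus. All culture samples lay above all muscle samples, and EDL and soleus overlapped. Egr1 fell by 3.05 in EDL (SE 0.09, 8.27-fold, adjusted p = 5.7e-10) and by 2.92 in soleus (7.57-fold, adjusted p = 8.5e-10) against myotubes, and by 2.28 and 2.15 against myoblasts. Myotubes were 0.77 above myoblasts (interval 0.57 to 0.97, adjusted p = 3.0e-05), short of a call. Soleus and EDL differed by 0.13 (-0.07 to 0.33), and by -0.15 with spike-in scaling.

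Egr2 (A_51_P173043, chr10:66937367-66937426, printed 10 times), the EGR member known for its role in myelinating Schwann cells, was 10.19, 10.10 and 9.87 in myoblasts and 10.72, 10.55 and 10.58 in myotubes. It was 8.73, 8.43 and 8.52 in EDL and 9.29, 8.79 and 9.12 in soleus. No 2 groups overlapped. Egr2 fell by 2.06 in EDL (SE 0.14, adjusted p = 3.3e-07) and by 1.56 in soleus (adjusted p = 3.3e-06) against myotubes, and by 1.49 in EDL against myoblasts (adjusted p = 3.3e-06). Soleus was 0.99 below myoblasts (adjusted p = 9.1e-05), just short of the size a call needed. That difference was called without myoblast sample 3 (-1.08), soleus sample 1 (-1.10) or soleus sample 3 (-1.01), and with spike-in scaling (-2.54). Myotubes stood 0.57 above myoblasts (adjusted p = 0.0054) and soleus 0.51 above EDL (adjusted p = 0.0223).

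Atf3, a stress-induced factor that mostly represses its targets, was low in EDL alone among the 4 groups. At A_52_P452689 (chr1:192871283-192871342) it was 11.61, 11.40 and 11.22 in myoblasts and 11.64, 11.41 and 11.48 in myotubes. It was 9.22, 9.04 and 8.99 in EDL and 11.11, 11.07 and 11.09 in soleus. Every EDL sample lay below the other 9, soleus lay just below the cultures, and the cultures overlapped. Soleus exceeded EDL by 2.01 (SE 0.11, 4.02-fold, interval 1.75 to 2.26, adjusted p = 8.0e-07), with 1.89, 2.03 and 2.10 within the slides and 1.74 with spike-in scaling (adjusted p = 0.00749). EDL fell by 2.43 against myotubes (adjusted p = 1.6e-08) and by 2.32 against myoblasts (adjusted p = 1.4e-08). Soleus was 0.42 below myotubes (interval -0.67 to -0.17, adjusted p = 0.0071) and 0.32 below myoblasts (adjusted p = 0.026), which spike-in scaling made calls of -1.65 and -1.87. Myotubes and myoblasts differed by 0.10 (-0.15 to 0.36), and by -0.22 with spike-in scaling.

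Ier2, an immediate early nuclear protein, had 2 probes that did not move together. At A_51_P481325 (chr8:87549656-87549690), the probe of higher mean signal by which the gene is counted, it was 11.82, 11.82 and 11.88 in myoblasts and 12.17, 12.09 and 12.26 in myotubes. It was 10.65, 10.52 and 10.71 in EDL and 10.81, 10.67 and 10.99 in soleus. Cultures lay above muscles throughout, and Ier2 fell by 1.55 in EDL (SE 0.10, adjusted p = 1.8e-07) and by 1.35 in soleus (adjusted p = 5.6e-07) against myotubes. Against myoblasts it fell by 1.21 in EDL and by 1.02 in soleus, the latter call being lost without soleus sample 2 (-0.94), without myoblast sample 3 or after quantile normalization (-0.96). At A_52_P554555 (chr8:87549829-87549887), 138 bases away, the levels were 6.71, 6.63 and 6.61 in myoblasts and 6.20, 6.49 and 6.02 in myotubes. They were 7.16, 7.55 and 7.36 in EDL and 7.04, 7.63 and 7.25 in soleus. Here muscles lay above cultures, by 1.12 in EDL (adjusted p = 1.6e-04) and 1.06 in soleus (SE 0.17, adjusted p = 2.4e-04) against myotubes, values that quantile normalization took to 0.82 and 0.74 and spike-in scaling to 0.16 and -0.16, none of them called. The soleus call at this probe was lost without myotube sample 3 (0.96) or soleus sample 2 (0.90). With the 2 probes averaged, Ier2 differed from myotubes by -0.21 in EDL and -0.14 in soleus and was not called, so its direction in muscle is uncertain. The files place the first probe on 35 bases of the genome and the second on 59.

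**Figure D2:**
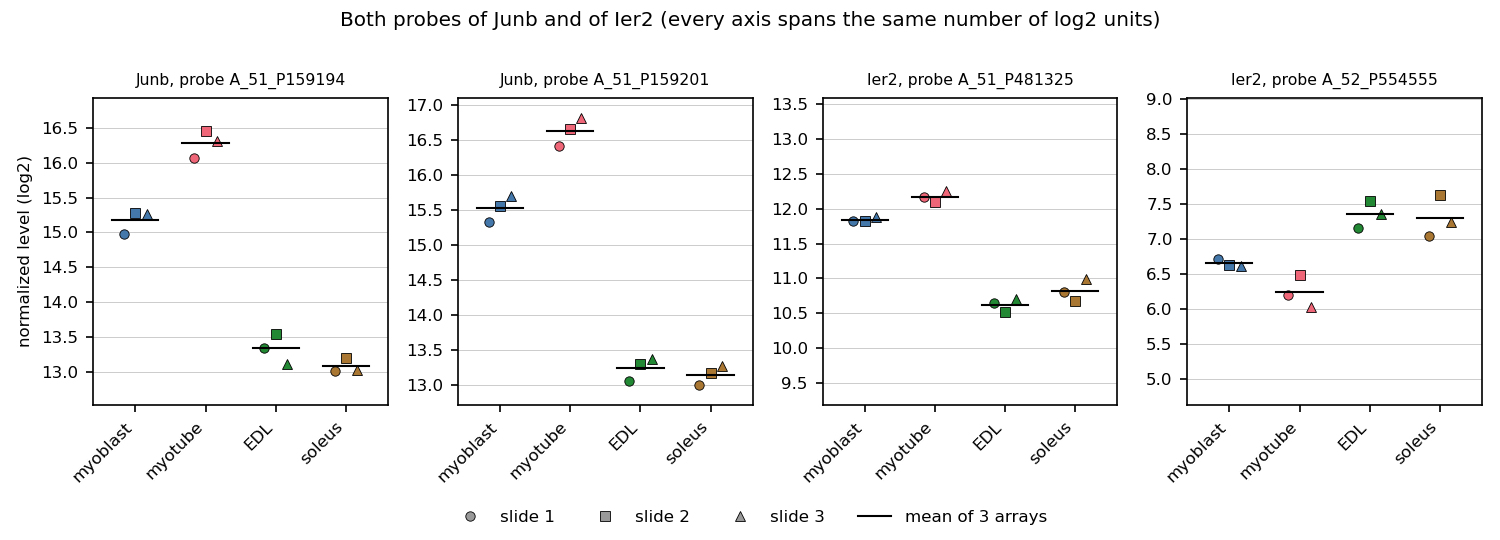
Normalized log2 level (vertical axis, each spanning the same number of units) at both probes of Junb and of Ier2, by group. Circles, squares and triangles are slides 1, 2 and 3, and the line is the mean of 3 arrays. The 2 Junb probes show the same order of groups for cultures and muscle, while the muscles lie below the cultures at 1 Ier2 probe and above them at the other.

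Socs3, the feedback inhibitor of cytokine receptors of the IL-6 family, had the largest difference of the 10 genes in each comparison with myotubes. At A_51_P474459 (chr11:117782256-117782315) it was 11.75, 11.70 and 11.61 in myoblasts and 16.04, 16.10 and 16.12 in myotubes. It was 11.71, 11.67 and 11.75 in EDL and 10.79, 10.67 and 10.85 in soleus. The myotube samples stood far above all others, myoblast and EDL samples overlapped, and soleus was lowest. Socs3 rose by 4.40 (SE 0.08, 21.1-fold, adjusted p = 3.4e-11) from myoblasts to myotubes. Against myotubes it fell by 4.38 in EDL (20.8-fold, adjusted p = 2.9e-11) and by 5.32 in soleus (39.9-fold, adjusted p = 1.0e-11), and these 3 calls held under each alternative run. EDL and myoblasts differed by 0.02 (interval -0.15 to 0.20), which became -1.26 and a call with spike-in scaling. Soleus was 0.94 below EDL (SE 0.08, adjusted p = 1.2e-05) and 0.92 below myoblasts (adjusted p = 1.4e-06), short of a call, although spike-in scaling made the second -2.47 and called.

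From myoblasts to myotubes, then, Socs3, Fos and Junb rose and no member fell. That is 3 of 10 genes, with 35.2% of all probes tested called, 18.4% as higher and 16.8% as lower. The median difference of the 10 was 0.45, against 0.02 over all probes. Groups did not overlap for 7 of the 10, against 68.3% of all probes. Egr1, Egr2, Ier2 and Jund were higher by 0.22 to 0.77 without reaching a call (Jund was -0.10 with spike-in scaling). Ier2 is counted here by its first probe (0.34). At its second probe it was -0.41, with every myotube sample below every myoblast sample, and with the probes averaged it was -0.04, neither called. The samples of Jun, Atf3 and Fosb overlapped (adjusted p = 0.156, 0.461 and 0.572). The floating myotubes had been trypsinised and put into fresh serum before collection and the myoblasts had not, so differentiation and this handling cannot be told apart. Markers fixed for dividing cells (Mki67, Ccnb1, Top2a, Cdk1 and Ccna2) fell in 5 of 5 and those of muscle fibres rose in 6 of 6, as the 2 labels have it.

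In EDL against myotubes 8 of the 10 fell (Socs3, Junb, Egr1, Fos, Atf3, Egr2, Ier2 and Jund), with 46.4% of all probes called, 26.0% as higher and 20.4% as lower. Ier2 is counted by its first probe only, and with the probes of each gene averaged the count was 7. That fit called 8827 of 18861 genes, 5149 of them as higher. The median difference was -2.24, against 0.14 over all probes, and groups did not overlap for the same number of members, 8 of 10, against 74.3% of probes. In soleus against myotubes 6 fell (Socs3, Junb, Egr1, Egr2, Fos and Ier2), with 44.3% of probes called, 24.3% as higher and 20.0% as lower. With probes averaged, which drops Ier2, the count was 5, and 8452 of 18861 genes were called, 4821 of them as higher. The median was -1.37, against 0.09 over all probes, and no member overlapped between the groups (10 of 10, against 73.1%). Both comparisons use the same myotube samples and are not independent.

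Against myoblasts 7 members fell in EDL (Atf3, Junb, Egr1, Egr2, Jund, Ier2 and Fosb), with 56.8% of probes called, 31.1% as higher and 25.8% as lower, and the median of the 10 was -1.21. In soleus 4 fell (Junb, Egr1, Fosb and Ier2) and Fos rose, with 55.0% of probes called, 29.3% as higher and 25.7% as lower, and the median was -0.96. Over all probes the medians were 0.15 and 0.09. Members without overlap numbered 6 in EDL, against 79.7% of probes, and 10 in soleus, against 78.9%. Ier2 is counted by its first probe only. At its second probe it was 0.71 higher in EDL and 0.65 higher in soleus than in myoblasts, neither called. With the probes of each gene averaged, 6 members fell in EDL and 3 in soleus. In that fit 10772 and 10354 of 18861 genes were called, 6149 and 5769 of them as higher. These 2 comparisons share the myoblast samples.

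In soleus against EDL, Atf3 and Fos rose and none fell: 2 of 10, with 9.45% of all probes called 4.97% as higher and 4.48% as lower. The median of the 10 was 0.35, against -0.03 over all probes. Groups did not overlap for 6 of the 10, against 43.1% of probes: Atf3, Fos, Jund, Jun and Egr2 were higher in soleus and Socs3 lower. The intervals of Egr1 and of the probes by which Junb and Ier2 are counted lay within 0.42 of 0. At the other probes of Junb and Ier2 they were -0.57 to 0.07 and -0.43 to 0.33. The interval of Fosb, from -1.22 to 0.69, was too wide to bound it as tightly.

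**Figure D3:**
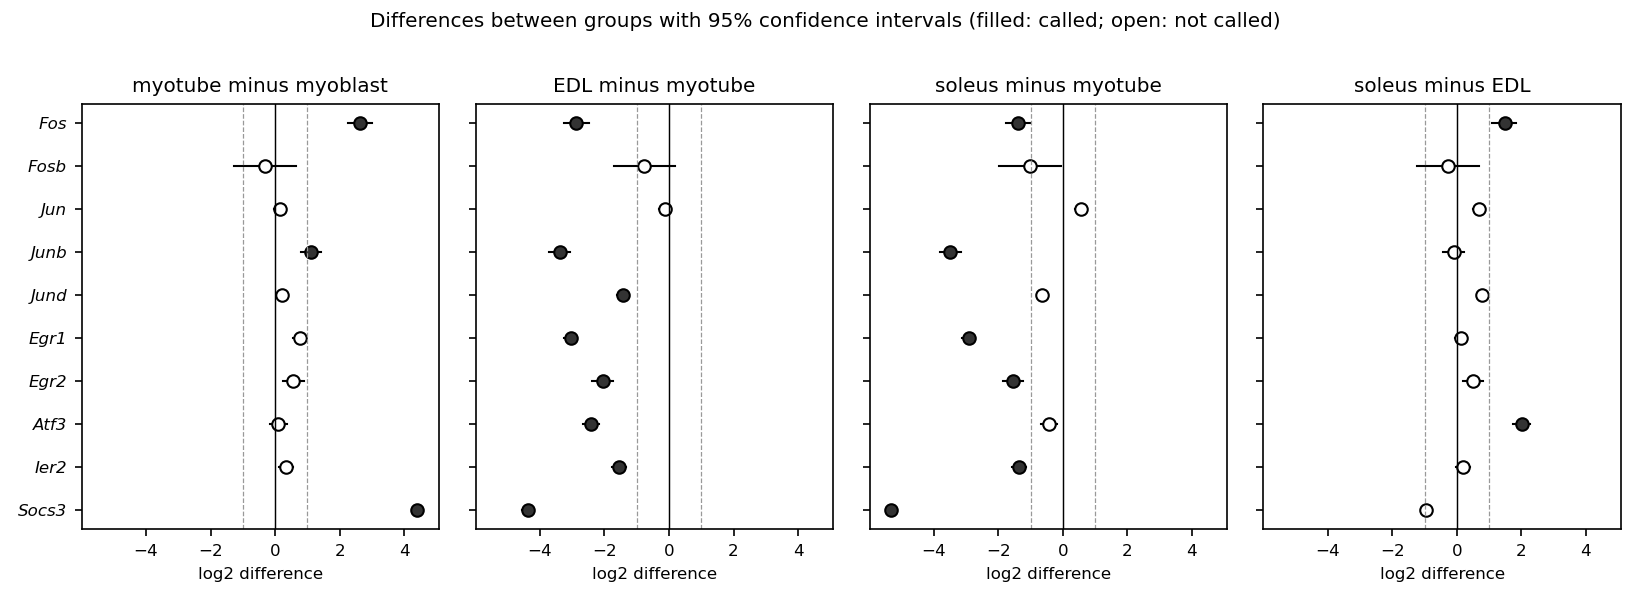
Log2 difference (horizontal axis) of each of the 10 genes in 4 comparisons, with 95% confidence intervals. Filled points were called, open points were not, and dashed lines mark a difference of 1 in either direction. The 8 filled points in EDL against myotubes and the 6 in soleus against myotubes all lie left of 0, and the 2 in soleus against EDL, Fos and Atf3, lie right of it.

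Most marker genes of other cell types were higher in whole muscle than in the cultures and so moved with the muscle against culture differences above. Against myoblasts, 5 of 6 macrophage, 5 of 6 fibroblast and 3 of 4 smooth muscle markers were called higher in each muscle. So were all markers of the other types named below. Endothelial markers were called higher in both muscles than in myotubes for 6 of 6 genes. Their summed log2 level was 9.61 to 9.90 in myoblasts, 6.12 to 6.48 in myotubes, 15.09 to 15.12 in EDL and 15.19 to 15.32 in soleus, with Pecam1, Cdh5 and Emcn not well above background on any culture array. Macrophage and leukocyte markers were higher for 5 of 6, from 7.43 to 7.62 in myoblasts and 7.30 to 7.40 in myotubes to 13.63 to 13.71 in EDL and 13.76 to 13.81 in soleus, with Ptprc and C1qa not above background in cultures. Fibroblast (6 of 6), adipocyte (4 of 4), smooth muscle (4 of 4), Schwann cell (4 of 4) and red blood cell (3 of 3) markers were also higher in each muscle than in myotubes. Fibroblast markers summed to 13.15 to 15.43 in cultures and 16.82 to 17.52 in muscles, and adipocyte markers to 4.70 to 7.54 and 16.27 to 16.99. Smooth muscle markers summed to 14.94 to 16.59 and 17.95 to 18.36, Schwann cell markers to 7.41 to 7.87 and 12.12 to 13.30, and red blood cell markers to 6.58 to 7.45 and 15.34 to 16.73. Thy1, Adipoq, Cfd, Plin1, Rgs5 and Alas2 were not well above background on any culture array. Their part in the results was not tested, and in such bulk samples fewer cells of a type and less RNA per cell cannot be told apart.

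Between the muscles, fast fibre markers were lower in soleus for 4 of 5 genes and slow fibre markers higher for 5 of 5, as the labels have it. Adipocyte markers were higher in soleus for 3 of 4, with a summed level of 16.27 to 16.37 in EDL and 16.78 to 16.99 in soleus. Schwann cell markers were higher for 1 of 4 (12.12 to 12.17 against 13.23 to 13.30), and red blood cell markers lower for 1 of 3 (16.49 to 16.73 against 15.34 to 15.71). No endothelial, macrophage, fibroblast or smooth muscle marker was called between the muscles. The part of these cells in the Fos and Atf3 differences was not tested.

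Genes around the 10 were read from lists of the same pathways. Among AP-1 relatives and dimer partners, 4 of 10 fell and 0 rose from myoblasts to myotubes, with a median of -0.53. Fosl1, the Fos relative FRA-1, fell by 4.40 (SE 0.39, adjusted p = 3.7e-06) where Fos rose, and Jdp2, a repressor of AP-1, fell by 1.87. In EDL against myotubes 4 of these 10 fell and 1 rose (median -0.36, and -1.31 with spike-in scaling), with Maff, a small MAF protein, at -2.49 and Fosl2 at -1.81. In soleus 2 fell and 2 rose (median 0.01, and -1.22 with spike-in scaling), with Fosl2 at -1.86. Batf3 rose in both muscles and Batf in soleus, but on myotube arrays they were well above background on 0 and 2. Fosl1 fell in both muscles but was well above background on 0 EDL and 2 soleus arrays. After normexp 0 rose in either muscle. Between the muscles Maff rose by 1.64 in soleus (SE 0.15, adjusted p = 1.8e-05), 1 call in 10.

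Of 5 EGR relatives and NAB proteins, 3 passed the filter. Egr3, a relative of Egr1 and Egr2, rose by 2.61 in myotubes (adjusted p = 2.7e-08), though after normexp it was 1.46 and not called. It was 4.16 lower in EDL and 3.95 lower in soleus than in myotubes. Nab2, a corepressor that EGR proteins induce and that restrains them, fell by 3.71 in EDL (adjusted p = 2.8e-09) and fell by 3.36 in soleus (adjusted p = 6.1e-09). None of the 3 was called between the muscles.

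Of 26 other immediate early genes, 24 passed the filter. In myotubes against myoblasts 6 rose and 4 fell (median 0.26, and -0.06 with spike-in scaling). The RNA-decay factor Zfp36l1 rose by 2.75, the antiproliferative gene Btg2 by 2.44 and the stress gene Gadd45b by 2.41, while the nuclear receptor Nr4a2 fell by 2.57. In EDL 13 fell and 3 rose against myotubes (median -1.20), and in soleus 11 fell and 2 rose (median -0.64). Myc, a driver of growth, fell by 3.83 and 4.38 in them, Ier3 by 2.96 and 2.55, and Rhob by 2.67 and 2.47. In soleus against EDL 3 rose and 4 fell: Btg2 by 2.26 and Ier5 by 1.84 upwards, Gadd45g by 2.53 and Gadd45b by 1.98 downwards. Immediate early genes outside the 10 were thus called in both directions between the muscles.

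Around Socs3, 19 of 20 listed genes of the SOCS family and the IL-6 and STAT3 route passed the filter, and 8 rose and 1 fell in myotubes (median 0.62). The STAT3 targets Cebpd and Bcl3 rose by 4.78 (adjusted p = 4.4e-10) and 3.14 (adjusted p = 1.5e-07). Il6, the cytokine itself, rose by 3.65 (adjusted p = 5.4e-09) and the kinase Pim1 by 2.06, but after normexp these were 2.12 (adjusted p = 0.0539) and 0.74 and not called. Against myotubes 4 rose and 4 fell in EDL and 3 rose and 6 fell in soleus (medians 0.31 and 0.35). With spike-in scaling 1 rose and 8 fell in EDL and 1 rose and 9 fell in soleus (medians -0.65 and -0.87). Cish, the SOCS relative induced by STAT5, went the other way from Socs3, rising by 6.60 in EDL and 6.23 in soleus (adjusted p = 3.9e-11 and 5.9e-11), while Cebpd fell by 2.09 in soleus and Bcl3 by 2.14 in EDL. Between the muscles Socs2 fell by 1.55 and Jak1 by 1.24 in soleus, with 3 lower and 1 higher in all.

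Of 9 genes of the ATF4 stress response, 1 rose and 1 fell in myotubes: Herpud1 by 1.49 and Trib3 by -2.13. Against myotubes 2 rose and 4 fell in EDL, where Chac1 rose by 2.30, and 2 rose and 3 fell in soleus, where Cebpg rose by 1.76 but was 0.54 and not called with spike-in scaling. With that scaling 1 rose and 6 fell in EDL and 0 rose and 5 fell in soleus. The medians went from -0.51 and -0.35 to -1.46 and -1.57. Asns, the asparagine synthetase and an ATF4 target, fell by 5.34 in EDL and 5.42 in soleus against myotubes. Atf3 in soleus against myotubes was called only with spike-in scaling (-1.65). Between the muscles Trib3 rose by 1.57 in soleus, where Atf3 was also higher, but was 1.30 and not called with spike-in scaling, and Chac1 fell by 1.82. A link of these genes to Atf3 was not tested. Of 14 measured genes of serum response factor, its cofactors and the kinases upstream, 0 rose and 1 fell in myotubes (Elk3, a ternary complex factor, by 2.59). In EDL 3 rose and 0 fell, in soleus 2 rose and 1 fell, and none was called between the muscles. With spike-in scaling these counts turned to 1 up and 4 down in EDL and 0 up and 7 down in soleus, and the medians from 0.39 and 0.30 to -0.56 and -0.92.

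**Figure D4:**
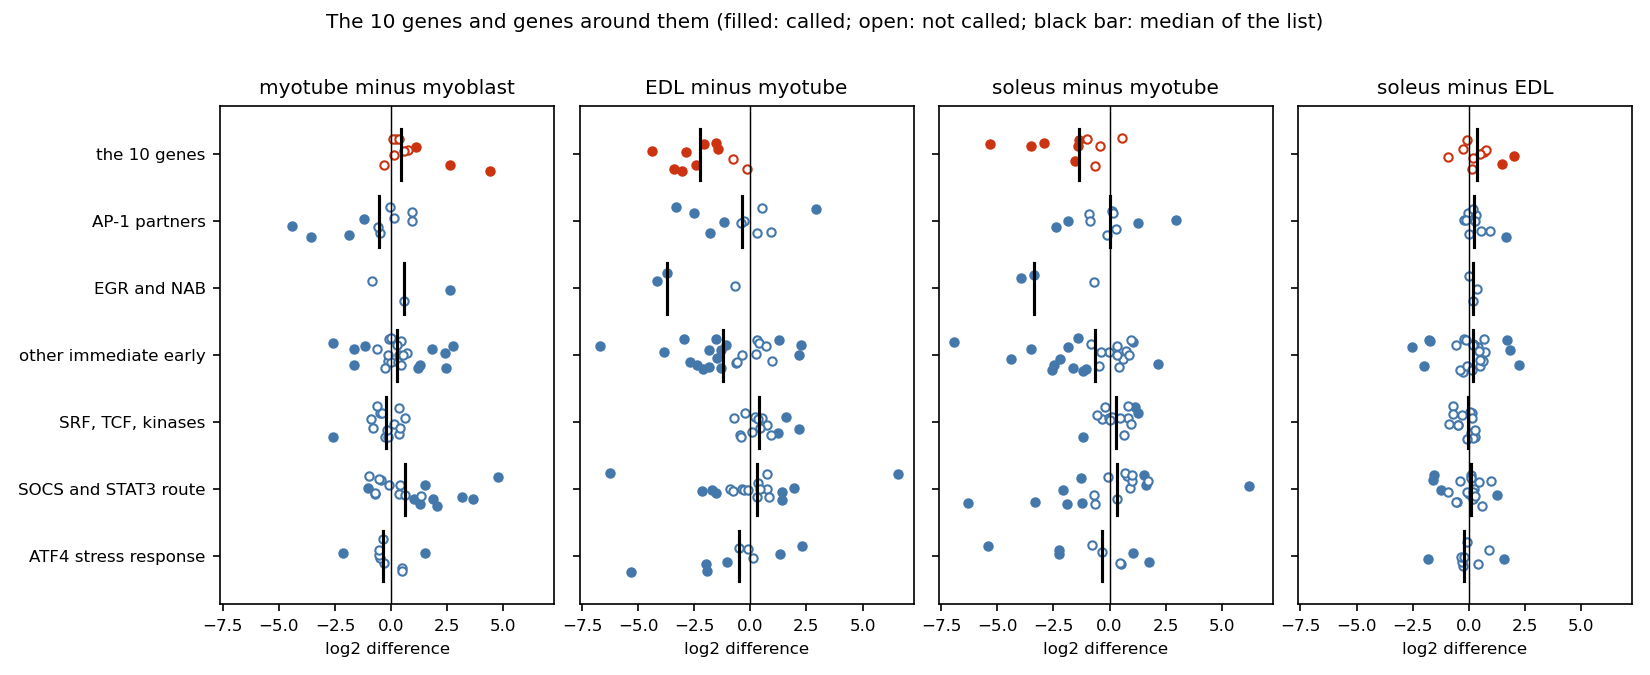
Log2 difference (horizontal axis) of the 10 genes (red) and of the genes of 6 related lists that passed the filter (blue) in 4 comparisons. Filled points were called, open points were not, black bars are medians, and heights within a row are random. The 10 genes lie mostly left of 0 in both muscles against myotubes (medians -2.24 and -1.37), as do the other immediate early genes (-1.20 and -0.64), while the serum response factor list is centred right of 0 (left of it with spike-in scaling).

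The genes most like 4 members across the 12 arrays were found by the root mean square difference of log2 levels, each centred on its own mean. For Fos they were Aopep (0.26), Slc3a1 (0.28) and Usp20 (0.30). For Egr1 they were Efhd1 (0.15), Fbxw9 (0.17) and Ttll5 (0.18), and for Atf3 Slc12a4 (0.26), Serpind1 (0.28) and Gfod1 (0.29). For Socs3 they were Ppil6 (0.32), Ppfia4 (0.34) and Best1 (0.35). Ppil6 was well above background on 3 of the 12 arrays and Slc3a1 on 9, so their places rest in part on background values. No other member was among the 3 nearest of any of these 4.

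**Figure D5:**
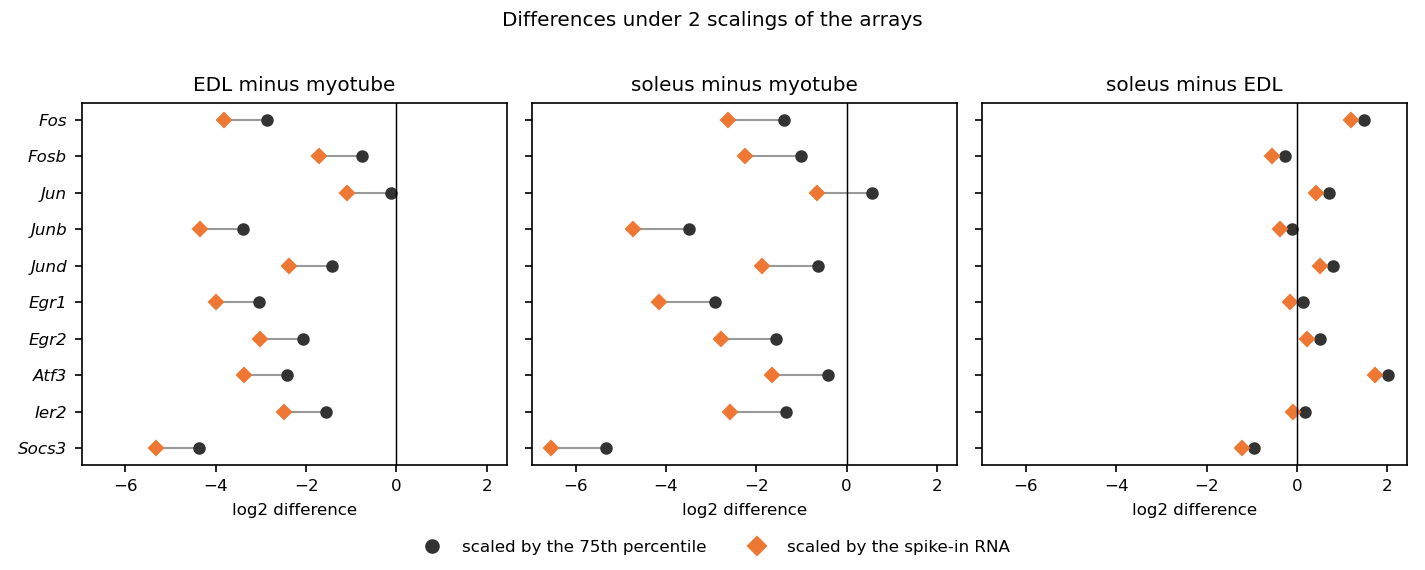
Log2 difference (horizontal axis) of the 10 genes in 3 comparisons with arrays scaled by their 75th percentile (black circles) or by the spike-in RNA (orange diamonds). The spike-in values lie lower by 0.95, 1.23 and 0.27 at the median of all probes. Jun in soleus against myotubes goes from 0.57 to -0.66, and Fos in soleus against EDL from 1.48 to 1.20.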

How the data were processed

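RNA of 12 samples was hybridised to one-colour Agilent arrays. The deposited intensity values are the scanner's processed signals, made with Agilent Feature Extraction 10.5.1.1 per the file headers, background-subtracted and not scaled between arrays. Spots marked as outliers (68 to 140 per array) and controls were left out, spots of a probe were averaged as log2 values, and arrays were scaled to a common 75th percentile. The filter asked for a signal well above background in each of the 3 samples of some group. Means of 4 groups were fitted with limma 3.58.1 in R 4.3.3 (8 residual and 1.85 prior degrees of freedom). A gene stands by its probe with the highest mean signal.

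Samples with the same number shared a slide and deviated together (r = 0.21 to 0.62 in every pair), so the numbers pair the samples. The authors' deposited value table was an alternative. Its labels state neither scale nor normalization. Its log2 values correlated with the scanner's at r of 0.998 or more on every array, and its column medians lay between 453 and 486, so it is linear and scaled between arrays in a way not given in the sources used here. Named genes of the pathway lists are up to 4 called genes with the largest difference per list and comparison, well above background on all arrays of both groups. Members, lists and likeness rules were chosen with earlier results of these data known. The alternatives are given in the closing section.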

Additional observations from a re-analysis of the deposited data

How the results depend on the processing

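With spike-in scaling members called numbered 2 in place of 3 (myotubes against myoblasts), 10 in place of 8 and 9 in place of 6 (EDL and soleus against myotubes), 1 in place of 2 (soleus against EDL), 10 in place of 7 (EDL against myoblasts) and 8, all lower, in place of 5, of which 1 was higher (soleus against myoblasts). Of all 28607 probes that scaling called 9385, 15664, 17663, 1333, 18656 and 20190, in the same order. The main scaling called 10070, 13272, 12677, 2702, 16254 and 15731. In soleus against myoblasts normexp left 3 members called, with 6674 of all probes. Spike-in scaling turned the sign of Fos in soleus against myoblasts (-0.32), Jun (-1.27) and Socs3 (-1.26) in EDL against myoblasts, and the second Ier2 probe in soleus against myotubes (-0.16). It also turned Jun in soleus against myoblasts (-0.84) and myotubes (-0.66), Jun (-0.18), Jund (-0.10) and Atf3 (-0.22) in myotubes against myoblasts, and Egr1 (-0.15) and Ier2 (-0.08) in soleus against EDL, none called under either scaling. Fosb in EDL against myoblasts was 0.18 within slide 2. The cause was not tested. Quantile normalization took Ier2 in soleus against myoblasts to -0.96, not called, and it was not called without myoblast sample 3 or soleus sample 2 (-0.94).

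With slide as the replicate block, 7 in place of 6 members were called in soleus against myotubes, through Fosb, and no other call of the 12 probes changed. Over all probes the block called 12943 in place of 12677 in that comparison. Of 1344 alternative values of the probes, 1251 kept their side of the threshold and their sign, 38 lost the call and 26 gained one with the sign kept, 4 turned sign with a call under one of the settings, and 25 turned sign without a call under either. All 19 called differences of the 4 main comparisons kept their sign within all 3 slides.

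Over all probes, normexp called 4401 in place of 10070 (myotubes against myoblasts), 6412 in place of 13272 and 6178 in place of 12677 (EDL and soleus against myotubes), 511 in place of 2702 (soleus against EDL) and 8116 in place of 16254 and 6674 in place of 15731 (EDL and soleus against myoblasts). Spike-in scaling called 1333 in soleus against EDL. With no filter, which tested 41174 probes, the counts went up in all 6 comparisons, for EDL against myoblasts to 24295. With 1 probe per gene or the stricter filter they fell, with fewer probes tested. The share of calls that were higher moved with spike-in scaling from 52.3% to 36.7%, 56.0% to 23.2%, 54.8% to 17.4%, 52.6% to 34.7%, 54.7% to 23.0% and 53.3% to 18.7%, in the same order. With 3 arrays a group and a spread pooled over all groups, with EDL the most variable, the wide interval of Fosb limits what can be said of it.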
